A study of Mus musculus with 2 samples.

Results

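The cells described here are splenic CD4 T cells that carried no Il2 transcript after stimulation. They were selected on unique molecular identifiers (UMIs, counts of captured transcripts), from all hashtags together. A cell needed at least 200 detected genes, at most 10% mitochondrial UMIs, at least 2 UMIs summed over Cd3d, Cd3e, Cd3g and Trac, and at least 1 UMI of Cd4 or Cd40lg. It could hold no UMI of Cd79a, Ms4a1, Ncr1, Cd8a, Cd8b1, Foxp3 or Il2, and fewer than 3 UMIs summed over the type 2 cytokine genes Il4, Il5 and Il13. This left 291 of 16829 cell barcodes. The mice were wild-type C57BL/6 animals of 8 weeks, all made allergic to ovalbumin (OVA) by sensitization on days 0 and 10. One group then stayed untreated, another received standard desensitization with OVA in PBS on days 20, 22 and 24 and OVA in Alum on days 40 and 60, and the last received OVA linked to the DCIR-2-Fusion protein on the first 3 of these days. The study's methods also describe an OVA challenge on day 80, before the spleens were taken. In every group the cells were restimulated with PMA and ionomycin for 3 h, separated by sorting CD45+ cells with and without CD11b, recombined in equal parts and sequenced as 1 pool. That pool held 4 hashtags for 3 conditions, and no label ties a hashtag to a condition. The number of mice behind each hashtag is not given in the sources used here.

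Because there was 1 pooled library, no comparison below has a replicate and no test was made. Levels are UMIs per 1000000 (CPM) from the summed UMIs of a group, ratios are CPM ratios, and every interval is an exact 95% interval that covers counting error only, not the spread between mice. The matrix held 137010302 gene UMIs, with a median of 6334 per barcode. The 291 cells had a median of 6693 UMIs (1487 to 40733) and 2086 genes, and their UMIs summed to 2260836. The main comparison was with 562 CD8 T cells that passed the same T cell gate with at least 1 UMI of Cd8a or Cd8b1 and none of Cd4. These were deeper, at a median of 10345 UMIs and 6427431 in all. Closer neighbours were 252 CD4 T cells that met every other limit but held Il2 (Il2-positive, median 7550.5 UMIs), and 190 Foxp3-positive T cells without Cd8a or Cd8b1 (median 10289 UMIs).

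Naive CD4 T cells circulate between blood, spleen and lymph nodes, held in a resting state by factors such as Foxo1, Klf2, Tcf7 and Lef1, and enter lymphoid tissue with homing receptors such as that encoded by Ccr7. After they meet antigen they lose much of this programme, raise adhesion and calcium-binding genes such as Cd44, S100a4 and S100a6, and keep part of these as memory cells. PMA and ionomycin bypass the T cell receptor and make T cells transcribe cytokine and immediate-early genes within hours. IL-2 is a growth factor that CD4 T cells release on such stimulation, and CD40 ligand, encoded by Cd40lg, lets them help B cells.

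Of 16829 barcodes, 16766 had enough genes and 16325 also met the mitochondrial limit. The T cell genes kept 2812 cells, and 2030 of these lacked Cd79a, Ms4a1 and Ncr1. Cd4 or Cd40lg was present in 742, of which 665 lacked Cd8a and Cd8b1, 577 also lacked Foxp3, and 543 passed the limit on type 2 cytokines. Without Il2 were 53.6% of these 543 (95% interval 49.3% to 57.8%). The share fell with depth, from 66.2% in the shallowest of 4 equal depth groups over 54.8% and 49.3% to 44.1% in the deepest. An Il2 count of 0 was therefore more common in cells with fewer UMIs, and a cell that made little Il2 cannot be told apart from one that made none.

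**Figure D1:**
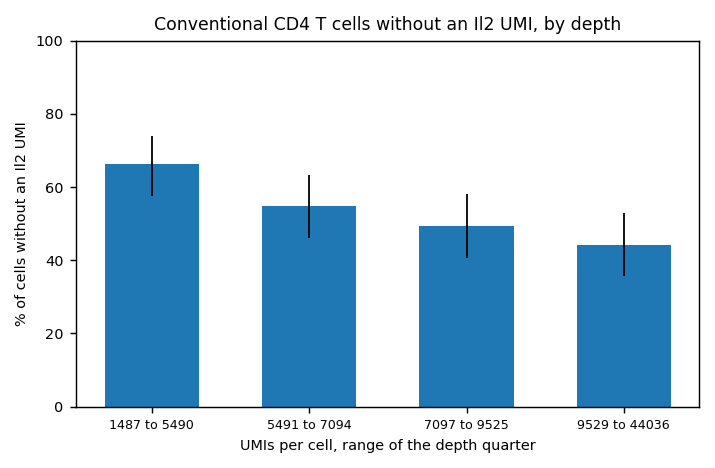
Share of the 543 conventional CD4 T cells with no Il2 UMI (bars, %) in each of 4 equal groups of cells ordered by UMIs per cell, with exact 95% binomial intervals (lines). The share is 66.2% in the shallowest group and 44.1% in the deepest.

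Cells near each limit show how sharp the selection was. Just outside the Il2 limit were 35 cells with 1 Il2 UMI, against 124 with 2 to 9 and 93 with at least 10. Of the 291 cells, 51 met the T cell limit with exactly 2 UMIs, and 56 further cells missed it with 1. Entry rested on 1 UMI of Cd4 or Cd40lg in 83 of the 291, whereas 537 cells that met all other limits had neither. Foxp3 alone kept out 66 cells, 14 of them with 1 UMI and 52 with more. Cd8a or Cd8b1 kept out 13 cells with 1 UMI and 18 with more. Among the 291 cells, 284 had no UMI of Il4, Il5 or Il13, 4 had 1 and 3 had 2, and just outside stood 1 cell with 3 and 9 with more.

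The label markers were checked first. Cd4, the coreceptor (chromosome 6, 124864692 to 124888221, GRCm38), had 197 UMIs and was seen in 40.5% of the cells. Cd40lg (chromosome X, 57212143 to 57224042) had 1179 UMIs and was seen in 78.4%. Both were used by the gate, so these values are a description. By entry, 173 cells came in through Cd40lg alone, 63 through Cd4 alone and 55 through both. Zbtb7b, which encodes the CD4 lineage factor ThPOK, was close to the limit of detection, with 10 UMIs against 3 in the CD8 T cells.

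Itm2a, the label marker that the gate did not use, encodes a membrane protein raised in activated T cells and is known as a target of the transcription factor GATA-3. It lay on chromosome X at 107397099 to 107403376 and reached 58.8 CPM, against 24.0 CPM in CD8 T cells, a ratio of 2.46 (95% interval 1.93 to 3.12). By hashtag it was 27.0, 46.8, 92.5 and 72.9 CPM for hashtags 9, 10, 11 and 12, and 11.02, 14.6, 39.6 and 22.8 CPM in the CD8 T cells of the same hashtags. The CD4 level was the higher of the pair in each hashtag, although the range of the 4 CD4 values overlapped that of the CD8 values. In cells that entered by Cd40lg alone Itm2a was at 81.5 CPM (66.6 to 98.8). In those that entered by Cd4 alone it was at 15.8 CPM (6.81 to 31.1), below the CD8 level, which lay within this interval. Against the Il2-positive CD4 T cells its log2 ratio was 0.09, with ratios of 0.455, 0.994, 1.63 and 1.37 by hashtag, so it did not set the 2 CD4 groups apart. With every cell thinned to 2000 UMIs, 11.8% of the CD4 cells, 3.74% of the CD8 T cells and 0.0441% of B cells carried an Itm2a UMI, so the transcript was well above what free RNA left in B cells, whose median depth before thinning was 9276 UMIs. Gata3 itself was 2.57 times higher than in CD8 T cells (82.7 against 32.2 CPM, 2.10 to 3.15). The Itm2a promoter is therefore shown, as the 250 bases before the RefSeq start on the minus strand of chrX:107403361-107403610 (GRCm38.p6), with the GATA-type motif AGATAA, searched on both strands, in capitals.
Itm2a: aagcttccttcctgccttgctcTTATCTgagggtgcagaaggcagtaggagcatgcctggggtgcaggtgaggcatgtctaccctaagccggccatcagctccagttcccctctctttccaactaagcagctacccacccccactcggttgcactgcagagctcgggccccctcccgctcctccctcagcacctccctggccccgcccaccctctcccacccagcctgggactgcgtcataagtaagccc
The motif occurred 1 time, on the opposite strand, from 228 bases before the start. Of 32851 RefSeq promoter windows of this length, 9.99% held it, so a match here is common and describes letters, not binding.

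The cells of the 4 hashtags were told apart by the antibody-bound oligos below, which are shown in 5′ to 3′ direction because every value by hashtag rests on them.
Hashtag 9: tgcctatgaaacaag
Hashtag 10: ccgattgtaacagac
Hashtag 11: gcttaccgaattaac
Hashtag 12: ctgcaaatataacgg
Among the CD4 T cells without Il2, 28, 82, 80 and 42 carried hashtag 9, 10, 11 and 12 alone, 56 were called as carrying more than 1 hashtag and 3 as carrying none. Both the gene and the hashtag counts came in 1 matrix with the same 16829 barcodes. Relative to all conventional CD4 T cells of the hashtag, the share without Il2 was 52.8%, 50.3%, 62.5% and 47.2%. Hashtag 11 was the highest, at 53.5% to 70.9% by its interval, and this interval overlapped those of the other hashtags.

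Naive genes were asked about first, because the CD8 T cells give a reference within the same spleens and the same stimulation. Of 18 listed genes, 13 had at least 100 UMIs in both groups together and were compared. Klf2 and Foxo1 were over 2-fold higher in the CD4 cells, 1 gene was over 2-fold lower, and 11 of 13 had a ratio above 1. Across all 6802 genes compared, 3.82% were more than 2-fold higher and 1.81% more than 2-fold lower (260 and 123 genes). This balance turned when the 86 CD4 cells with a UMI of Ikzf2, Nrp1 or Itgb8 were left out, a choice made after seeing the data, with 174 genes higher and 279 lower. Here and below, only the CD4 T cells without Il2 lost such cells, and the groups compared with them kept theirs. In the remaining 205 cells 11 of 13 naive genes had a ratio above 1, with 4 past 2-fold higher and 1 lower. In all 291 cells the median log2 ratio of the 13 was 0.51, against 0.06 over all genes compared.

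Klf2, a factor that drives expression of S1pr1 in resting T cells (chromosome 8, 72319033 to 72321656), stood at 59.5, 58.2, 70.6 and 59.6 CPM in hashtags 9 to 12, and at 6.30, 18.0, 16.3 and 7.59 CPM in the CD8 T cells. These values did not overlap. Pooled, Klf2 reached 63.7 CPM (53.7 to 74.99) against 19.0 (15.8 to 22.7), a ratio of 3.36 (2.62 to 4.31). After thinning to 2000 UMIs it was seen in 9.69% of the CD4 and 2.67% of the CD8 T cells. S1pr1, the receptor that lets T cells leave lymphoid tissue, had only 52 and 27 UMIs, under the minimum for a comparison, and a ratio of 5.48 (3.38 to 9.07). Foxo1, the factor upstream of Klf2 and Il7r, read 405, 372, 355 and 480.2 CPM by hashtag against 165, 243, 155 and 163 CPM, again without overlap. Its pooled ratio was 2.04 (1.86 to 2.23).

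Lef1, a factor of naive and stem-like T cells, read 189, 132, 340 and 252 CPM in hashtags 9 to 12 against 131, 71.8, 117 and 103 CPM in CD8 T cells. Each CD4 value was above its CD8 partner, by 1.45, 1.84, 2.91 and 2.45 times, and the pooled ratio was 1.97 (1.75 to 2.22). Tcf7, its partner factor, had a pooled ratio of 1.66 (1.40 to 1.98), but by hashtag the ratio was 2.43, 0.944, 1.82 and 0.827, so its direction differed between hashtags. Ccr7, the receptor for lymph node chemokines, had a ratio of 1.42 (1.21 to 1.66) and lay above 1 in each hashtag. Il7r, the IL-7 receptor that carries survival signals, had 1.43 (1.18 to 1.74) when pooled, but 0.390, 0.949, 1.44 and 2.85 by hashtag, so its direction differed as well. Actn1, which crosslinks actin, had 1.59 (1.36 to 1.85) and lay above 1 in each hashtag, yet it fell to 0.609 when only cells with a Cd4 UMI were admitted.

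Several naive genes were close to equal. Satb1, a chromatin organizer of T cells, stood at 1886 against 1840.4 CPM, a ratio of 1.02 (0.989 to 1.06). Bach2, a repressor of effector genes, had a ratio of 1.21 (1.17 to 1.26), Foxp1, which maintains quiescence, 1.11 (1.07 to 1.16), and the kinase gene Txk 1.18 (0.952 to 1.45). Dapl1 had 0.821 (0.509 to 1.28). Under the minimum were also Igfbp4 with 15 and 5 UMIs, Nsg2 with 31 and 29, Id3 with 23 and 69 and Tdrp with 8 and 30.

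**Figure D2:**
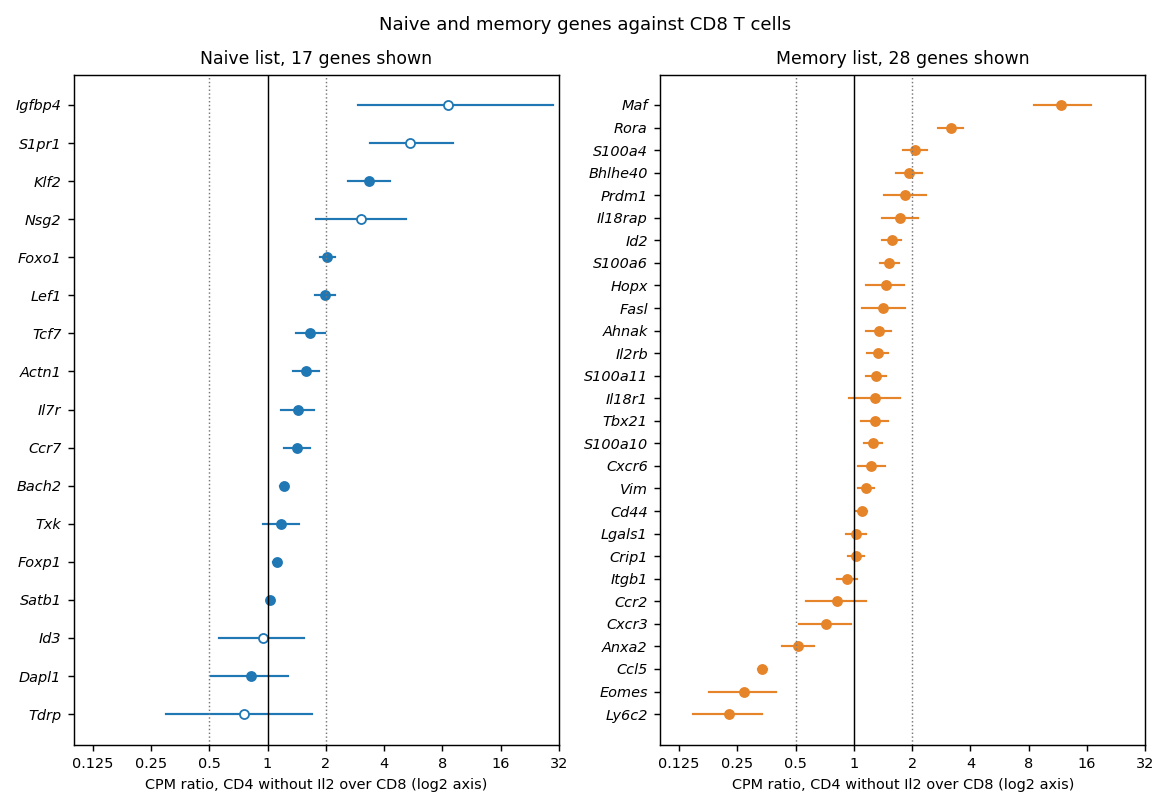
CPM ratio of the CD4 T cells without Il2 over CD8 T cells (log2 axis) for 17 naive genes (left, blue) and 28 memory genes (right, orange), with exact 95% counting intervals (lines). Open points had fewer than 100 UMIs in both groups together, and dotted lines mark 0.5 and 2. Klf2 lies at 3.36 and Satb1 at 1.02 among the naive genes, Maf at 11.8 and Ly6c2 at 0.226 among the memory genes.

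Memory and effector genes were mixed. All 29 listed genes could be compared, 3 were more than 2-fold higher (Maf, Rora and S100a4), 3 more than 2-fold lower (Ccl5, Eomes and Ly6c2), and 21 had a ratio above 1. The even split rested on the cells admitted, since 11 were higher and 4 lower with Cd4 required for entry, and 2 higher and 7 lower without the 86 cells with Ikzf2, Nrp1 or Itgb8, where 11 of 29 had a ratio above 1 and the median log2 ratio was -0.26. The median log2 ratio was 0.36, also above the 0.06 of all genes. A bulk-like sum over cells cannot separate more cells with a transcript from more transcript per cell.

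Maf encodes c-Maf, a factor of IL-10 and IL-21 producing helper cells (chromosome 8, 115682942 to 115707794). Its level was 64.9, 105, 48.8 and 113 CPM in hashtags 9 to 12 and 15.7, 11.97, 4.25 and 0.843 CPM in CD8 T cells, without overlap. The pooled ratio was 11.8 (8.49 to 16.7), with a UMI in 56 of 291 CD4 and 22 of 562 CD8 T cells. Rora, the gene of a nuclear receptor in type 2, type 17 and regulatory T cells, read 135, 173, 219 and 152 CPM against 63.0, 60.5, 83.5 and 31.2 CPM. These groups did not overlap either, and the pooled ratio was 3.16 (2.73 to 3.66).

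S100a4, a calcium-binding protein gene of antigen-experienced T cells, read 114, 135, 126 and 116 CPM by hashtag against 64.5, 80.5, 136 and 43.8 CPM. Pooled it was 2.07 times higher (1.80 to 2.39), yet the groups overlapped and in hashtag 11 the ratio was 0.928. Without the 86 cells that held a UMI of Ikzf2, Nrp1 or Itgb8, a set chosen after the values were seen, the pooled ratio was 1.00 for S100a4, 0.599 for S100a6 and 5.34 for Maf. Its neighbour S100a6 had a pooled ratio of 1.53 (1.36 to 1.71) and 0.520 in hashtag 11. Cd44, the classical surface marker of antigen experience, was nearly equal when pooled, at 539 and 492 CPM (1.10, 1.02 to 1.17), as was Itgb1, an integrin chain, at 0.923 (0.815 to 1.04). Lgals1, which encodes galectin-1, had 1.03 (0.912 to 1.16) pooled, but 0.925, 0.944, 0.401 and 2.06 by hashtag, 0.577 without the 86 cells and 1.87 with Cd4 required for entry. Among factors of effector differentiation, Bhlhe40 had 1.92 (1.65 to 2.24) and lay above 1 in each hashtag, but it was at 1.12 without the 86 cells. Prdm1, which encodes Blimp-1, had 1.84 (1.43 to 2.37) pooled but 0.737 in hashtag 10, 1.35 without the 86 cells and 1.01 after thinning to 1000 UMIs. Id2 had 1.57 (1.40 to 1.75) pooled but 0.721 in hashtag 11 and 1.03 without the 86 cells.

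The 3 lower memory genes are known from CD8 memory and effector cells. Ccl5, a chemokine gene, read 1162, 592, 491 and 212 CPM in hashtags 9 to 12 against 2822, 2536, 2259.7 and 1035 CPM. Each CD4 value was below its CD8 partner, and the pooled ratio was 0.336 (0.319 to 0.355). After thinning, Ccl5 was seen in 21.8% of the CD4 and 49.2% of the CD8 T cells, and in 8.65% of B cells, where free transcript, doublets and expression were not told apart. Eomes, a T-box factor, had 0.270 (0.178 to 0.396) pooled but 1.18 in hashtag 12, and Ly6c2, a surface protein gene, 0.226 (0.147 to 0.335) pooled but 1.05 in hashtag 9. Tbx21, which encodes T-bet, was at 1.28 (1.09 to 1.503). Anxa2 (0.514) and Cxcr3 (0.714) also lay below 1 without reaching 2-fold.

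**Figure D3:**
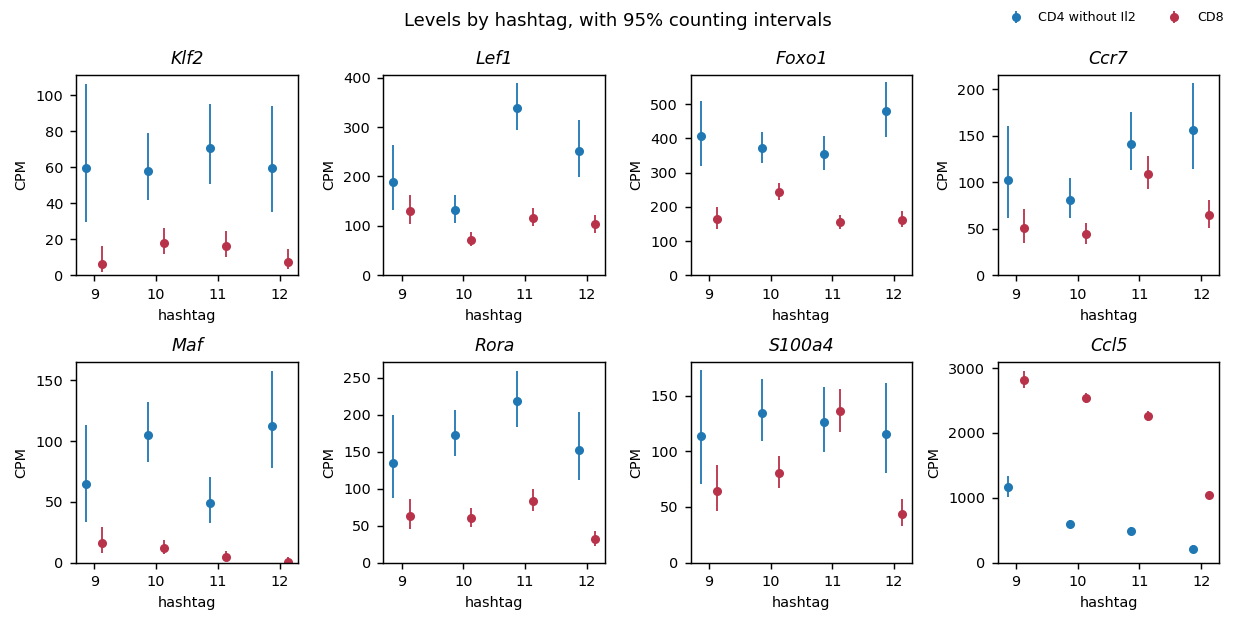
Levels (CPM, linear axes from 0) of 8 naive and memory genes in the CD4 T cells without Il2 (blue) and CD8 T cells (red) of each hashtag, with exact 95% Poisson intervals (lines). Klf2, Foxo1, Maf and Rora are higher in the CD4 cells of all 4 hashtags, Ccl5 is lower, and S100a4 changes order in hashtag 11.

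Genes of the cytotoxic programme were lower throughout. Of 15 cytotoxic genes compared, 13 were more than 2-fold lower, none was higher, and the median log2 ratio was -1.56. The chemokine genes Xcl1 (610 against 3506 CPM, ratio 0.174), Ccl4 (2096 against 11478 CPM, 0.183) and Ccl3 (364 against 1804 CPM, 0.202) led. Next came Cd160, an inhibitory receptor (0.222), Klrc1 (0.229) and Crtam, an adhesion receptor (0.321). Gzmb, which encodes granzyme B, had 0.432, Nkg7, a granule protein gene, 0.431, and Runx3, the CD8 lineage factor, 0.450. Prf1, the perforin gene, was an exception at 0.848 (0.695 to 1.03). In total the 18 cytotoxic genes summed to 4041 CPM in the CD4 cells, of which Ccl4 made up 2096, and 19175 CPM in the CD8 T cells. After thinning to 2000 UMIs, Gzmb was seen in 11.8% of the CD4, 28.9% of the CD8 T cells and 5.52% of B cells, and Nkg7 in 11.1%, 26.7% and 2.07%.

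Lineage and costimulation genes showed the reverse. Of 13 compared, 7 were more than 2-fold higher and none lower, at a median log2 ratio of 1.02. Tnfrsf4, which encodes the costimulatory receptor OX40, reached 527 against 122 CPM (4.33, 3.96 to 4.75), and was higher in the CD4 cells of all 4 hashtags by 2.91 to 8.06 times. Tox, a factor of thymic CD4 development, stood at 829 against 309 CPM (2.68, 2.52 to 2.86), and Icos, another costimulatory receptor, at 2.03 (1.85 to 2.22). Cd5, a brake on receptor signalling, had 2.05 and Cd200, an inhibitory ligand, 2.21. Cd28 fell just short at 1.96 (1.79 to 2.15). In the 205 cells without Ikzf2, Nrp1 and Itgb8, 5 of the 7 were within 2-fold, with Tnfrsf4 at 1.56 (1.36 to 1.79), Tox at 1.54, Icos at 1.83 and Cd200 at 1.38, while Cd5 was at 2.43.

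Among 14 helper regulators compared, 5 were higher past 2-fold, among them Maf, Rora, Gata3 and Bcl6 (2.07), the factor of follicular helper cells. Follicular helper genes had 5 of 10 higher, with Il21 at 4.28 (3.17 to 5.81) and Izumo1r, the folate receptor 4 gene, at 4.91 (3.49 to 6.98), while of the genes that define these cells Cxcr5 stayed under the UMI minimum (16 and 49 UMIs) and Ascl2 was at 0 in both groups. In the 205 cells none of these 5 follicular helper genes was past 2-fold higher, and Il21 was past 2-fold lower. Il21 had 2 UMIs left and a ratio of 0.114 (0.0136 to 0.428), and Izumo1r was at 1.64 (0.942 to 2.76). Of the regulators, Gata3 (1.60) and Bcl6 (1.83) were within 2-fold there, and Maf and Rora were past it. Of 18 anergy and coinhibition genes compared, 7 were higher and none lower. These were Izumo1r, Nt5e (CD73, 4.84), Nrp1 (neuropilin-1, 4.47), Dgka (a diacylglycerol kinase, 3.35), Il10 (2.72), Tnfrsf18 (GITR, 2.47) and Ikzf2 (Helios, 2.39). By hashtag the Ikzf2 ratio was 0.181, 1.95, 2.44 and 5.18, so its direction differed between hashtags. In the 205 cells Nt5e (3.11) and Dgka (3.62) stayed past 2-fold, whereas Il10 was lower than in CD8 T cells (0.368, 0.214 to 0.596), Tnfrsf18 was at 1.21 (0.956 to 1.52) and Nrp1 and Ikzf2 were at 0 by this choice of cells. The CD4 cells left out held 183 of the 201 Il10 UMIs. The CD8 T cells kept theirs, with Ikzf2 in 99 cells, so this Il10 ratio compares unlike sets of cells. Il2ra, the IL-2 receptor alpha chain, was 0.758 (0.710 to 0.808). The 38 stimulation response genes gave 4 higher and 1 lower, with Nr4a1 at 2.22 (2.04 to 2.43) and Egr1 at 2.28 (2.09 to 2.49), both immediate-early genes of receptor signalling, and Ier3 at 0.285. Cd40lg is itself raised by stimulation and admitted most of the CD4 cells, with no such gene in the CD8 gate. Nr4a1 stood at 458 CPM in cells that entered by Cd40lg alone and at 181 CPM in those that entered by Cd4 alone, against 186 CPM in CD8 T cells, whereas Egr1 stood at 332 and 396 CPM against 175 CPM. In TCR signalling, 2 of 15 were higher, the adaptor gene Lat (2.01) and Rasgrp1 (2.06), and of 10 homing genes none was higher and 1 was lower past 2-fold.

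The genes with the highest ratio among those seen in at least 10 CD4 cells were Hs6st3, Dgki, Maf, Nav2, Slc24a3, Gpm6b, Itgb8, Tshz2, Creb3l2 and 9930111J21Rik2. Several of these rested on few cells. Hs6st3, which encodes a heparan sulfate sulfotransferase, had 219 UMIs in 15 CD4 cells and 5 in the CD8 T cells, and Dgki, a diacylglycerol kinase gene, 128 UMIs in 13 cells against 5. Creb3l2, a transcription factor gene, was more widely seen, in 67 cells (5.51, 4.21 to 7.28). When the 86 cells with Ikzf2, Nrp1 or Itgb8 were taken out of the CD4 group, the ratios of Slc24a3 (0.0876, 0.00217 to 0.512), Gpm6b (0.492, 0.238 to 0.920) and Tshz2 (0.0550, 0.00138 to 0.316) fell below 1, and Hs6st3 was at 0.859 (0.0182 to 7.67). Creb3l2 was at 2.85 (1.99 to 4.05). Dgki had no UMI left in the 205 cells, and Itgb8 was at 0 by this choice of cells.

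At the lower end stood Ngp, Camp, S100a9, S100a8, Hs6st2, Smyd1, Cdc14b, 1700062C10Rik, Fam78b and Xcl1. The first 4 are neutrophil genes, and 1 CD8 T cell held 1157 of 1173 Ngp, 775 of 804 Camp, 3196 of 3436 S100a9 and 2517 of 2734 S100a8 UMIs. Their low ratios described that cell and not the CD4 group, and they passed 1 when the 5 CD8 T cells richest in these genes were left out. Smyd1 (0.0920, 0.0471 to 0.163) and Cdc14b (0.118, 0.0758 to 0.176), a phosphatase gene, were by contrast seen in 158 and 247 CD8 T cells and in 9 and 16 CD4 cells.

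Against the Il2-positive CD4 T cells the differences were fewer. Since Il2 was read in the same cells, all values of this comparison are a description. Of 5358 genes compared, 0.952% were more than 2-fold higher without Il2 and 1.08% more than 2-fold lower (51 and 58 genes). Without the 86 cells with Ikzf2, Nrp1 or Itgb8 the split was 42 higher and 181 lower, and without cells holding Trdc, Igkc, Cd74, Lyz2, S100a8 or Tyrobp it was 83 and 27. For the former split the Il2-positive cells kept such cells, with Ikzf2 in 27.0%, Nrp1 in 34.1% and Itgb8 in 13.9%. Values without the 86 cells thus compare unlike sets of cells. All 11 naive genes compared had a ratio above 1 and 2 were past 2-fold, Tcf7 (92.4 against 41.3 CPM, 2.24, 1.75 to 2.88) and Txk (2.15, 1.58 to 2.96), with a median log2 ratio of 0.75 against 0.02 over all genes. Klf2 had 1.87 (1.41 to 2.50), Lef1 1.69 (1.45 to 1.96) and Ccr7 1.68 (1.37 to 2.08). Without the 86 cells 6 of the 11 naive genes were past 2-fold higher, with a median log2 ratio of 1.04. By hashtag, Tcf7 stood at 91.9, 32.7, 177 and 53.0 CPM without Il2 and at 27.4, 15.7, 95.2 and 36.3 CPM with it, higher without Il2 in each hashtag while the ranges overlapped.

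Memory genes did not follow one direction in this comparison, with 3 of 26 higher (Cxcr6, a tissue homing receptor, at 2.52, Maf at 2.46 and Hopx at 2.26), 1 lower (Cxcr3, 0.436) and a median log2 ratio of 0.06. Without the 86 cells Maf was at 1.11 (0.776 to 1.59) and Hopx at 1.16, which left 1 of 26 higher and 7 lower. Rora was 0.603 (0.532 to 0.684). Of 14 cytokine genes compared, 4 were lower and 2 higher past 2-fold, and 5 had a ratio above 1. The 2 higher genes were Il17a (10.3) and Il17f (6.17), with 431 of 431 and 233 of 240 UMIs in 1 cell. Ifng, the gene of interferon gamma, read 349 against 2820 CPM (0.124, 0.115 to 0.133), and it was 103, 642, 95.9 and 126 CPM without Il2 against 2348, 4073, 1196 and 2906 CPM with it, without overlap between hashtags. Il21 had 0.311 (0.2499 to 0.385), Tnfsf11, which encodes RANKL, 0.384 (0.337 to 0.436), and Tnf 0.498 (0.406 to 0.609). By hashtag the Tnf ratio was 1.34, 0.255, 0.742 and 0.271, so its direction differed between hashtags. Without the 86 cells, and with the Il2-positive cells unchanged, Il21 was at 0.00832 (0.00100 to 0.0303) and Tnf at 0.603, and 7 of 14 cytokine genes were past 2-fold lower. The stimulation response list did not separate the groups. None of its 37 compared genes passed 2-fold, Nr4a1 had a ratio of 1.01 (0.926 to 1.11) and Cd69, an early activation marker, 1.06 (0.998 to 1.13). The leading genes were St6galnac3, Herc3, Rasal3, Lamc1, Cdkn1b, Eif2ak3, Slx4ip, Pold4, Gprin3 and Cxcr6 on the higher side, among them Cdkn1b, the gene of the cell cycle inhibitor p27, with 39.4 against 14.6 CPM (2.69, 1.79 to 4.12). On the lower side they were Ifng, Ifitm2, Inhba, Angptl2, Cxcl10, Cxcl9, Il4i1, Ccl1, Mef2c and Slc38a6. Gprin3 was at 0.857 (0.558 to 1.30) without the 86 cells. Cxcl10 was higher, not lower, without cells holding Trdc, Igkc, Cd74, Lyz2, S100a8 or Tyrobp. Beside these values, the B cell list summed to 830.2 CPM without and 1534 CPM with Il2, and the myeloid list to 161 and 289 CPM, and their part in the differences was not tested.

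Compared with Foxp3-positive T cells, the CD4 T cells without Il2 were richer in naive genes. Of 5745 genes, 3.41% were more than 2-fold higher and 8.02% more than 2-fold lower, and the median log2 ratio over all genes was -0.13. Naive genes had 8 of 11 higher, none lower and a median of 1.93. Actn1 led with 119 against 10.96 CPM (10.9, 7.30 to 16.8), followed by Tcf7 at 6.16 (4.32 to 8.99), Bach2 at 4.56 (4.25 to 4.90), Klf2 at 4.24 (2.94 to 6.26), Satb1 at 4.16 (3.89 to 4.45), Lef1 at 3.82 and Ccr7 at 2.66. Il7r was the exception at 0.765 (0.621 to 0.940). Memory genes had 12 of 27 lower and 2 higher, with S100a6 at 207 against 746 CPM (0.278), S100a4 at 151 against 505 CPM (0.298), Lgals1 at 0.312 and Hopx, a factor of peripheral regulatory T cells, at 0.191. The groups also differed in depth, at medians of 6693 and 10289 UMIs.

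Regulatory T cell genes were lower in 7 of 8, with Ikzf2 at 201 against 1333 CPM (0.151, 0.136 to 0.166), Ctla4 at 0.217 and Il2ra at 0.316, while Nrp1 was 1.203 (1.03 to 1.41). Tnfrsf4, of the costimulation list, was at 0.211. Stimulation genes had 13 of 37 higher and 2 lower, among them Egr3 (4.802), Nr4a1 (3.21) and Egr1 (2.93), and Tnfsf8, which encodes CD30 ligand, read 1400.4 against 329 CPM (4.26). The leading genes on the higher side were Ralyl, Hs3st3b1, Gm47015, Actn1, Acsl3, Hs6st3, Dlg2, Pde3b, Tcf7 and Hspa4l. On the lower side they were Slc8a1, Il1rl1, Lrrc32, Tnfrsf8, Cxcl10, Klrg1, Hist1h1b, Cxcl2, Gm4951 and Pclaf, of which Il1rl1 (the IL-33 receptor, 5.75 against 125 CPM) and Lrrc32 (GARP, 2.21 against 44.2 CPM) are known from regulatory T cells. Of the Foxp3-positive cells, 1 held 596 of 1034 Cxcl10 UMIs and 1 held 77 of 187 Slc8a1 UMIs. On the higher side, Ralyl had 115 UMIs in 11 of the 291 cells. It had none in the 205 cells without Ikzf2, Nrp1 and Itgb8, where Hs6st3 was at 0.0484 (0.00119 to 0.289). B cell genes summed to 830.2 CPM in the CD4 cells and 1871 CPM in the Foxp3-positive cells, with Cd74 the most abundant in both, and myeloid genes to 161 and 486 CPM, and their part in the differences was not tested.

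**Figure D4:**
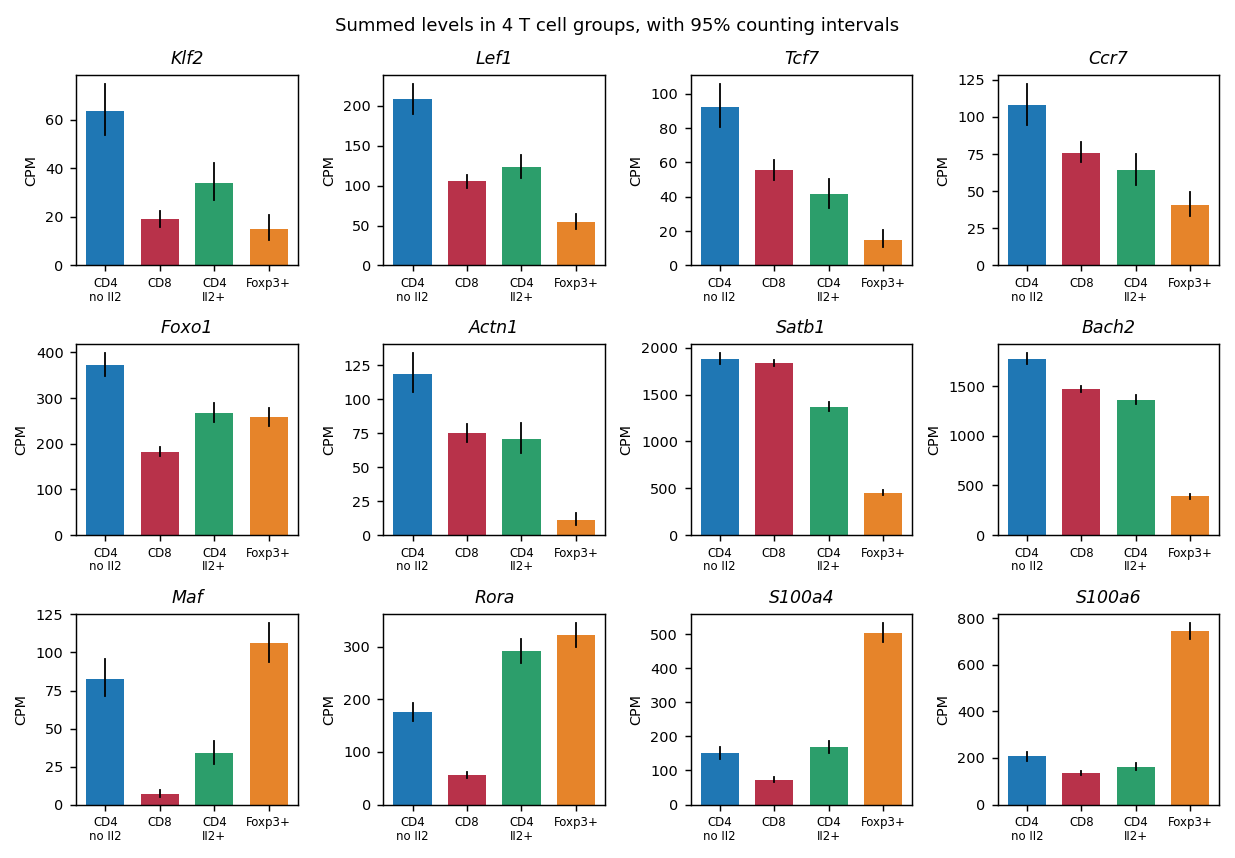
Summed levels (CPM, bars from 0) of 8 naive genes (top rows) and 4 memory genes (bottom row) in the CD4 T cells without Il2 (blue), CD8 T cells (red), Il2-positive CD4 T cells (green) and Foxp3-positive T cells (orange), with exact 95% Poisson intervals (lines). All 8 naive genes are highest in the CD4 T cells without Il2, by a ratio of only 1.02 over CD8 T cells for Satb1, while S100a4 and S100a6 are highest in the Foxp3-positive cells.

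The CD4 T cells without Il2 were not uniform. They were divided by 6 genes, with naive-side cells holding a UMI of at least 1 of 3 naive genes, Ccr7 and Lef1 among them, and none of S100a4, S100a6 or Itgb1, and memory-side cells the opposite. This gave 91 naive-side cells (31.3%) and 69 memory-side cells (23.7%), while 91 held genes of both sides and 40 held none of the 6. Median depths were 6095, 7154, 8223 and 5815 UMIs, so cells with both sets were the deepest and cells with neither the shallowest. The cells carrying a single UMI of the 6 genes, and thus nearest to a change of side, were 14 and 7.

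Beyond the 6 genes used, the sides differed broadly. Of 2077 genes compared, 11% were more than 2-fold higher on the memory side and 5.25% more than 2-fold lower (229 and 109 genes), against 116 higher and 112 lower without the 86 cells with Ikzf2, Nrp1 or Itgb8. Memory genes had 10 of 14 higher and none lower, at a median log2 ratio of 1.51. Lgals1 read 351 against 10.7 CPM (32.7, 14.8 to 90.1), Cxcr6 222 against 10.7 CPM (20.7, 9.25 to 57.4), Ccl5 1241 against 64.4 CPM (19.3, 13.8 to 27.7), Id2 10.4 times more and Cd44 2.66 times more. Of 5 naive genes compared 3 were lower and none higher, namely Actn1 (18.7 against 177 CPM), Satb1 (973 against 2740.3 CPM) and Bach2 (1014 against 2150 CPM). Without the 86 cells 9 of the 14 memory genes were past 2-fold, and of the naive genes Actn1 (0.167), with Satb1 at 0.501 and Bach2 at 0.675. All 6 cytotoxic genes compared were higher, with Nkg7 at 177 UMIs against 1 and Gzmb at 18.3 times (10.3 to 36.0). Genes of other cell types differed between the sides too. Gamma-delta and innate-like genes summed to 113.6 CPM in the memory-side and 5.37 CPM in the naive-side cells, with Trdc the most abundant on the memory side (47.5 CPM, with 17 of its 28 UMIs in 1 cell) and Trdv4, Tcrg-C2, Tcrg-C4, Sox13 and Blk at 0 there. NK cell genes summed to 159 and 25.1 CPM and myeloid genes to 210.3 and 104 CPM, whereas B cell genes summed to 224 and 437 CPM. Their part in the differences was not tested.

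Regulatory genes were also on the memory side. Of 6 compared, 5 were higher, with Nrp1 at 23.3 times, Ikzf2 at 17.1 times (427 against 25.1 CPM) and Ctla4 at 7.07 times, or 5.77 times without the 86 cells. Cytokine genes had 8 of 11 higher. The ratios of Il17a (136) and Il17f (75.8) were the largest of these but rested almost wholly on 1 cell. Ifng read 817 against 35.8 CPM (22.8, 14.6 to 37.7), with 207 of its 482 memory-side UMIs in 1 cell. Stimulation response genes leaned to the naive side, with 7 of 33 lower on the memory side and 1 higher, among them Cd69 (487 against 1461 CPM) and Nr4a1 (297 against 644 CPM). The remaining leading genes of the memory side were Slc24a3, Tmem163, Il1r2, Tshz2, Gpm6b and Rgs16. Without the 86 cells Slc24a3 and Tshz2 had no more than 1 UMI in the memory-side cells. Tmem163 had 224 UMIs against 0, which is 70.7 times a floor of 3 UMIs for the group and at least 57.1-fold higher by the lower limit of the exact interval. Il1r2, the decoy receptor for IL-1, had 136 against 0, or 42.9 times the floor and at least 34.5-fold higher by that limit, but with 76 UMIs in 1 cell. Leading the naive side were Actn1, Hspa4l, Gpr183, Gbp8, Nfkbid, Lrig1, Vps37b, Mapk14, Zfp592 and Samhd1, with Gpr183, an oxysterol receptor that positions T cells, at 639 against 98.4 CPM.

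**Figure D5:**
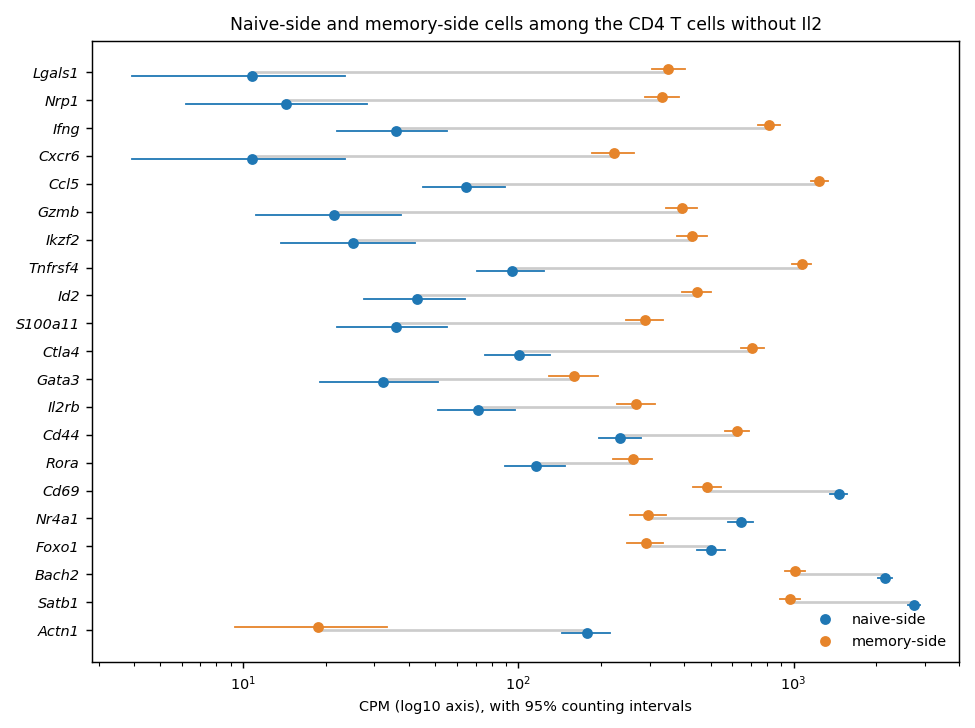
Levels (CPM, log10 axis) of 21 genes in the 91 naive-side (blue) and 69 memory-side (orange) cells, with exact 95% Poisson intervals (coloured lines). None of the 6 genes that defined the sides is shown. Actn1, Satb1, Bach2, Foxo1, Nr4a1 and Cd69 are higher on the naive side, and the other 15 on the memory side, up to Lgals1 at 32.7 times.

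The sides were spread unevenly over the hashtags. Memory-side cells made up 28.6%, 32.9%, 8.75% and 21.4% of the cells of hashtags 9, 10, 11 and 12, and naive-side cells 21.4%, 28.0%, 43.8% and 33.3%. Hashtag 11 had the lowest memory-side share, with an interval of 3.59% to 17.2% that did not overlap the 22.9% to 44.2% of hashtag 10. As hashtags cannot be assigned to conditions or mice, this is a value of these cell sets alone.

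Which gene admitted a cell mattered as well. The 63 cells that entered by Cd4 alone and the 173 that entered by Cd40lg alone had like depths, at medians of 6551 and 6528 UMIs. By level, 26 of the 29 memory genes were higher with Cd4 alone, among them S100a6 at 516 against 78.4 CPM and Maf at 201 against 32.9 CPM, while Rora, Tbx21 and Fasl were lower, Rora at 154 against 176 CPM. The 18 naive genes were divided, with 8 higher by Cd4 alone and 10 by Cd40lg alone. Tcf7 stood at 130.1 against 78.4 CPM, S1pr1 at 59.1 against 10.2 CPM, Il7r at 98.6 against 44.7 CPM and Txk at 100.5 against 41.5 CPM. In the other direction, Actn1 stood at 19.7 CPM (9.45 to 36.2) with Cd4 alone against 176 (153 to 200.1), Satb1 at 952 against 2266 CPM and Lef1 at 132 against 234 CPM. Outside these lists, Ctla4 was at 767 against 223 CPM, Ifng at 660.3 against 202 CPM and the immediate-early gene Nr4a3 at 329 against 877 CPM. A UMI of Ikzf2, Nrp1 or Itgb8 was held by 39 of the 63 cells that entered by Cd4 alone (61.9%, 48.8% to 73.9%) and by 27 of the 173 that entered by Cd40lg alone (15.6%, 10.5% to 21.9%). Ikzf2 stood at 434 against 118 CPM, Tnfrsf4 at 1062 against 289 CPM and Nkg7 at 363 against 92.5 CPM. The part of these cells in the differences by entry gene was not tested. Klf2 hardly differed, at 74.9 (53.0 to 103) and 63.5 CPM (50.4 to 78.9).

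Among cytokine genes other than Il2, Tnfsf8 was seen in 60.2% of the cells thinned to 2000 UMIs (71.5% before thinning) and in 0.706% of B cells. Tgfb1 (30.1%, against 26.8% of B cells) and Ccl4 (28.0%, against 31.6% of B cells) did not stand clear of the B cell shares. Before thinning, Ifng was seen in 81 cells (27.8%, 22.8% to 33.4%), Tnf in 87 (29.9%), Il10 in 38 (13.1%, 9.41% to 17.5%) and Il21 in 26 (8.93%). After thinning to 2000 UMIs, an Ifng UMI was present in 17.3% of these cells and 2.03% of B cells, and a Tnf UMI in 14.9% and 8.83%. An Il10 UMI was present in 7.61% of these cells, 4.10% of CD8 T cells, 7.94% of B cells, themselves known Il10 producers, and 0.542% of NK cells, whose median depth before thinning was 5281.5 UMIs. Il10 was accompanied by Ifng in 25 cells and by Maf in 24, and Il21 by Ifng in 22 and by Il10 in 14. Il17a, the main cytokine gene of type 17 helper cells, had 431 UMIs, all in 1 cell, which also held 233 of 240 Il17f UMIs and all 34 Il22 UMIs, so the type 17 levels of the group describe 1 cell. No UMI of Il3 or Il9 was seen in the 291 cells, which by the exact interval allows up to 1.26% of such cells to hold a UMI at this depth and sets no limit on how many express these genes. Relative to CD8 T cells, 6 of 15 cytokine genes compared were higher (Il17a, Il17f, Il21, Il10, Lta and Ltb). Of these, only Il17a and Il17f stayed past 2-fold higher in the 205 cells. Another 5 were lower, with Ifng at 349 against 1905 CPM (0.183, 0.170 to 0.197), Tnfsf14, the LIGHT gene, at 0.249, and Xcl1, Ccl3 and Ccl4 as above. Ifng was lower in the CD4 cells of all 4 hashtags, at ratios of 0.0395, 0.303, 0.0428 and 0.109. The CD8 T cells were not limited to cells without Il2, and Ifng stood at 2820 CPM in the Il2-positive CD4 T cells. The part of the Il2 limit in the Ifng ratio was not tested.

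Transcripts of other cell types were present in many cells, mostly at low levels. A UMI of the B cell list was held by 57.0% of the CD4 cells and 67.4% of the CD8 T cells. A UMI of the myeloid list was held by 50.9% and 56.4%. Of the 1877 B cell list UMIs in the CD4 cells, 396 lay in 1 cell. The 11 B cell genes summed to 830.2 CPM in the CD4 cells and 688 CPM in CD8 T cells, with Cd74 as the most abundant (372 CPM) and Cd79b at 0. The 10 myeloid genes summed to 161 and 1120.4 CPM, most of the latter in the single CD8 T cell above, and the 7 NK cell genes to 150.4 and 126 CPM. The 5 plasma cell genes summed to 46.9 and 38.1 CPM, and erythroid and platelet genes to 1.33 and 1.87 CPM. Gamma-delta and innate-like genes summed to 52.6 and 12.1 CPM, with Trdc, the delta chain constant gene, in 9 CD4 cells and Trdv4, Tcrg-C4 and Sox13 at 0. None of these 11 genes reached the minimum for a comparison. Heat shock genes had no member past 2-fold (2384 against 3160.4 CPM in sum). Scrublet marked 20 of the 291 cells as doublets (6.87%), 4.63% of the CD8 T cells and 8.18% of all cells that met the limits on genes and mitochondrial UMIs. Doublets were kept in the values above, and the part of other cell types in them was not tested.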

How the data were processed

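Spleen cells of OVA-sensitized mice were profiled with 10x Genomics 3′ v3.1 single-cell RNA-seq and TotalSeq-A hashtags. The authors deposited raw UMI counts per gene and barcode, made with Cell Ranger 7.2.0 (7.0.0 per the file header) on GRCm38 (mm10). FastQC and Seurat are also named in the submitters' processing notes. Whether intronic reads were counted is not given in the sources used here. Gene and hashtag counts shared 1 matrix of 32285 gene rows, 4 hashtag rows and 16829 barcodes with 502 to 98727 UMIs, in which 78 gene rows shared a symbol.

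UMIs were summed per group and divided by the group's total. With 1 pool there was no replicate and no test was made. Poisson, binomial and ratio intervals are exact 95% intervals. Genes with at least 100 UMIs in both groups together were compared, a 2-fold ratio counted as past the threshold, and genes of the gate were left out. A group at 0 was set to a floor of 3 UMIs. The text names the genes of the lists and the 10 leading genes in each direction with a UMI in at least 10 cells of the higher group. A few genes of the lists count in the totals but are not reported here by name. Members and lists were chosen with earlier results of these data known. Cells were thinned to 2000 UMIs where shares were compared, which left out 2 of the 291 cells and 1 CD8 T cell.

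Hashtags were called with HTODemux of Seurat 5.3.0 (R 4.3.3) at a positive quantile of 0.85, and doublets with Scrublet in scanpy 1.11.5 at an expected rate of 0.1, and were kept. DoubletFinder, which the study used, was not used here. Other tools were Python 3.11.15, NumPy 2.4.6, SciPy 1.17.1, pandas 2.3.3 and matplotlib 3.10.9. The scripts were tested on simulated data. Gene coordinates are from GENCODE M21 (GRCm38) and the promoter from RefSeq (GRCm38.p6). Samples were not grouped by condition, since hashtags are not tied to conditions. Alternatives covered the limits on cells, the entry genes, doublets, depth, scaling, the UMI minimum and each hashtag.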

Additional observations from a re-analysis of the deposited data

How the results depend on the processing

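In all, 126 counts were recomputed under other settings, of which 95 stayed within 1.5 times of the reported count and 31 did not. The reported counts past 2-fold were 383 genes against CD8 T cells, 109 against Il2-positive cells, 657 against Foxp3-positive cells and 338 between sides, with 3 naive and 6 memory genes against CD8 T cells. With Cd4 required for entry, 118 cells were left, and the counts were 704 against CD8 T cells, 404 against Foxp3-positive cells and 15 memory genes. Without cells holding Trdc, Igkc, Cd74, Lyz2, S100a8 or Tyrobp, 151 cells were left, with 375 genes against Foxp3-positive cells, 172 between sides and 10 memory genes. Without Scrublet doublets, 5 naive genes passed. Thinned to 2000 UMIs, the counts were 808, 344 and 1132 against CD8, Il2-positive and Foxp3-positive cells, and thinned to 1000 UMIs they were 1160, 752 and 1348, with 558 between sides. With at least 20 UMIs they were 1229, 610, 1626 and 1478, with 6 naive genes, and with at least 400 UMIs 133, 25, 205 and 64, with 1 naive and 3 memory genes. Fewer UMIs per gene widen the counting error of a ratio. With each hashtag left out in turn, there were 209 to 263 cells, 329 to 458 genes against CD8 T cells, 97 to 112 against Il2-positive cells, 528 to 642 against Foxp3-positive cells, 219 to 318 between sides (219 without hashtag 10), 2 to 4 naive and 5 to 7 memory genes. With CPM taken without ribosomal protein and mitochondrial genes, the split between sides moved from 229 higher and 109 lower to 191 and 149, and 1 naive gene was higher against CD8 T cells in place of 2. With CD8 T cells limited to those without Il2, Foxp3 and Cd40lg and under the type 2 cytokine limit, 325 genes were past 2-fold against them.

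Of 2138 gene ratios, 76 lay on the other side of 1 from the reported value. In 56 of these the reported ratio was within 2-fold or under the UMI minimum, with Lgals1 crossing in 7 of 18 settings, Satb1 in 6 and Cd44 in 5 against CD8 T cells. The other 20 had been past 2-fold. With only cells of 1 hashtag, Ngp was 4.93, Camp 1.09, S100a9 1.21 and S100a8 1.66 against CD8 T cells. Without cells holding the 6 genes above, Ngp was 2.52, Camp 1.01 and S100a9 1.07, and against Il2-positive cells Gprin3 was 0.960 and Cxcl10 2.13. The next 2 settings were chosen after seeing the data. The first left out CD8 T cells only, and the second left out CD4 T cells without Il2 only. Without the 5 CD8 T cells richest in neutrophil genes, Ngp was 2.63, Camp 1.10, S100a9 1.25 and S100a8 1.61. Without the cells holding Ikzf2, Nrp1 or Itgb8, Hs6st3 was 0.859, Slc24a3 0.0876, Gpm6b 0.492 and Tshz2 0.0550 against CD8 T cells, with 1 UMI each of Hs6st3, Slc24a3 and Tshz2 left, Itgb8, at 0 by this choice, 0.157 by the floor of 3 UMIs, Gprin3 0.857 against Il2-positive cells and Hs6st3 0.0484 against Foxp3-positive cells, with 223 and 991 genes past 2-fold in the latter comparisons and 5 naive genes against CD8 T cells. Klf2, Lef1, Foxo1, Maf, Rora, S100a4 and Ccl5 stayed on the same side of 1 against CD8 T cells in all 18 settings, though S100a4 came as low as 1.00, Maf ranged from 5.34 to 29.96 and Rora from 2.15 to 6.83. CD4 and CD8 T cells were set side by side within each hashtag, but this pairing was not tested, since no label ties a hashtag to a mouse or condition.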

Other observations

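A UMI of Ikzf2 (Helios), Nrp1 (neuropilin-1) or Itgb8 (an integrin chain that activates TGF-beta), genes known from regulatory T cells, was present in 86 of the 291 cells (29.6%), although Foxp3 was at 0 by the gate. This set was chosen after its values were seen, so what follows is a description. Such cells made up 17.9%, 35.4%, 17.5% and 26.2% of the cells of hashtags 9, 10, 11 and 12, 5.49% of the naive-side cells and 55.1% of the memory-side cells. Their median depth was 6949.5 UMIs. Ctla4, an inhibitory receptor, read 907 CPM in them and 135 CPM in the remaining cells, Tnfrsf4 1189 and 189.7 CPM, Il10 239.6 and 12.02 CPM, and Maf 171 and 37.4 CPM. The naive genes Lef1 (48.4 and 289 CPM), Actn1 (26.2 and 166 CPM) and Satb1 (754 and 2464 CPM) were lower in them. Il2ra, high in Foxp3-positive cells, was not higher in them, at 479 and 554 CPM. Lrrc32 (6.55 CPM), Il1rl1 (7.85 CPM) and Klrg1 (5.24 CPM) were far below their levels in Foxp3-positive cells (44.2, 125 and 47.5 CPM). Ifng (761 and 138 CPM) and the cytotoxic granule gene Nkg7 (271 and 80.8 CPM) were higher in them than in the remaining cells. Several leading genes lay almost wholly in these cells, with Hs6st3 at 285 and 0.668 CPM, Slc24a3 at 169 and 0.668 CPM, Tshz2 at 203 and 0.668 CPM, Gpm6b at 301 and 7.35 CPM, and Dgki at 168 and 0 CPM. Foxp3-positive T cells held Slc24a3 at 282, Tshz2 at 153, Gpm6b at 69.8, Dgki at 48.3 and Hs6st3 at 13.8 CPM. Il2-positive CD4 T cells held Hs6st3 at 103, Gpm6b at 127, Dgki at 52.9, Tshz2 at 77.1 and Slc24a3 at 40.9 CPM, and Nrp1 at 374 CPM in 34.1% of cells, against 121 CPM in Foxp3-positive cells.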
